A study of Mus musculus with 6 samples.

Results

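The S100 genes encode small calcium-binding proteins, and those described here are the members not typical of granulocytes: S100a1, S100a4, S100a6, S100a10, S100a11, S100a13, S100a14, S100a16 and S100b. The 9 symbols were given as a list, and each was read from probe sets that the array annotation gives to that gene alone, taking the probe set of highest mean over the arrays. Of these 9 genes 8 had such a probe set, among 18193 genes measured in this way. S100a11 had none, because its 1 probe set is also annotated to 2 further loci, S100a11-ps and Gm12854.

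The arrays came from pancreatic tumour cells of C57BL/6 mice aged 11 weeks. All 6 samples carried the tumour alleles written KeasG12D/+, p53f/f and ptf1a-Cre in the labels, a mutant Ras allele and a conditional p53 allele with Cre recombinase under control of Ptf1a, a gene of pancreatic progenitor and acinar cells. In 3 samples, labelled wt and called wild-type, Msi1 was intact, and 3 were Msi1 -/- (Msi1-null). The product of Msi1 is the RNA-binding protein Musashi, known from progenitor cells, and the label limits the null genotype to no cell type. Nothing in the labels ties each sample to its own animal, and the p-values cover only the spread among these samples, which may be technical in part. By the sex-linked genes given below, the wild-type samples did not all come from the same animal.

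S100 proteins are EF-hand proteins that mostly act as dimers. Calcium opens a surface on the dimer through which it binds target proteins such as annexins, myosin and p53, and some members are also released and act on receptors such as RAGE, the product of Ager. Most of the genes lie in 1 cluster on a single chromosome, and several are known from pancreatic and other carcinomas, where S100a4 is widely used as a marker of fibroblasts and of mesenchymal tumour cells and S100a14 and S100a16 are epithelial. S100b, outside the cluster, is best known from glial cells.

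In the RefSeq gene table (GRCm38.p6) S100a1, S100a13, S100a14 and S100a16 are 4 consecutive protein-coding genes of chromosome 3. S100a4 and S100a6 follow with S100a5 between them, and S100a11 and S100a10 are neighbours farther along, while S100b lies on chromosome 10. RefSeq promoter windows of 300 bases, from 250 bases before a start site to 50 bases from it on, were matched for 7 of the 9 genes by symbol, and not for S100a10 and S100a14. Of these, 3 windows are shown, 1 because it holds the start sites of a divergent pair and 2 because those genes lie close together and differed in their order of arrays. The S100a1 and S100a13 start sites lie 105 bases apart and point away from each other, and capitals in the first sequence mark the stretch from the S100a1 start to the S100a13 start, both included (chr3:90514185-90514484, plus strand). In the S100a4 window (chr3:90603520-90603819, plus strand) capitals mark a TATA box, and the S100a6 window (chr3:90612644-90612943, plus strand) held none of the motifs searched.
S100a13: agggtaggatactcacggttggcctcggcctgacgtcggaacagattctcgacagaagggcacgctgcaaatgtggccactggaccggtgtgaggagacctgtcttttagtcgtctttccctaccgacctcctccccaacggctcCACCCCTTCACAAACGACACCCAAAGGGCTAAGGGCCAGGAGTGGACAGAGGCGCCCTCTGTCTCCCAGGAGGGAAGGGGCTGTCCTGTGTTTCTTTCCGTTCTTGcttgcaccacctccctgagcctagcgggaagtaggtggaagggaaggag
S100a4: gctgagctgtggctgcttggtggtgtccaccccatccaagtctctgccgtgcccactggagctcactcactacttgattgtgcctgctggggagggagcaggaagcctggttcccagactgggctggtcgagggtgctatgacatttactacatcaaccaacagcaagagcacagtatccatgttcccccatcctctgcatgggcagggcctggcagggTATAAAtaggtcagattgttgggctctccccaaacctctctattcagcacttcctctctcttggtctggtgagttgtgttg
S100a6: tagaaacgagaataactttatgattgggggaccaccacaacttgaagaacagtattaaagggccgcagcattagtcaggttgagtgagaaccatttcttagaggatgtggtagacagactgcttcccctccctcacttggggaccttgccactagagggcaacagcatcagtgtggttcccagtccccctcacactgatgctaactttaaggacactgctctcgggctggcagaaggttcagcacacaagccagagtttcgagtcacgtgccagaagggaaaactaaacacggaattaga

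Motifs were searched on both strands. The TATA box was spelled as the letters TATAAA, the GC box was spelled as GGGCGG, the element of the factor AP-1 was spelled as TGANTCA, and the antioxidant response element was spelled as TGACNNNGC. The last 2 can share bases. Their shares among all 32851 windows of this length were 13.6%, 35.7%, 7.81% and 12.4%. The TATA box of S100a4 begins 31 bases before its start site. The S100a11 window held 3 GC boxes and 2 AP-1 matches, and the 2 windows of S100a16 held an antioxidant response element in the first and a GC box and an AP-1 match in the second. The windows of S100a1, S100a6, S100a13 and S100b held none of the 4. A match describes letters only.

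The number of arrays limits the precision of all comparisons. Median intensity per array lay between 159.3 and 164.4. The 3 probe sets for Msi1 read between 114.7 and 257.1 on the 6 arrays, near the array background of 160.4 to 184.4, which was set on each array at the 95th percentile of 87 olfactory, vomeronasal and taste receptor probe sets. Their position against the deletion was not known, and they check no label. One array, wild-type replicate 3, had a female pattern (Xist 6226.4 and Eif2s3y 88.19), whereas Eif2s3y, a Y-linked gene, read 716.2 or more on the others. Summed acinar markers (12 of 14 measured) read 41172.8 to 64472.2 in wild-type and 14118.8 to 39851.4 in Msi1-null arrays, and the part of this difference in the results below was not tested. Bulk arrays cannot tell fewer cells of a type from less RNA per cell.

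No S100 gene passed the test between the genotypes. All 8 measured genes had a higher mean in Msi1-null arrays, by 0.02 (S100a1) to 0.35 (S100a14) on the log2(intensity + 1) scale, and in each of the 8 the arrays of the groups overlapped. In the limma fit over all 45037 probe sets 0 of the 8 genes had a Benjamini-Hochberg adjusted p under 0.05, against 0% of all probe sets, and 0 of 8 had an unadjusted p under 0.05, against 3.46% of 18193 genes. Groups without overlap were seen for 0 of 8 genes and for 8.28% of all genes. A higher mean in Msi1-null arrays, 8 of 8 here, was found for 50.3% of all genes, and without Msi1-null replicate 3 the count was 5 of 8. The median log2 difference of the 8 genes was 0.11, beside 0.0006 over all genes, and it was 0.02 without Msi1-null replicate 3, 0.21 without Msi1-null replicate 1 and 0.21 without Msi1-null replicate 2. Msi1-null replicate 3 gave the highest value of the 6 for 5 of the 8 genes, S100a6, S100a10, S100a13, S100a14 and S100a16, and for 13.7% of all genes.

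**Figure D1:**
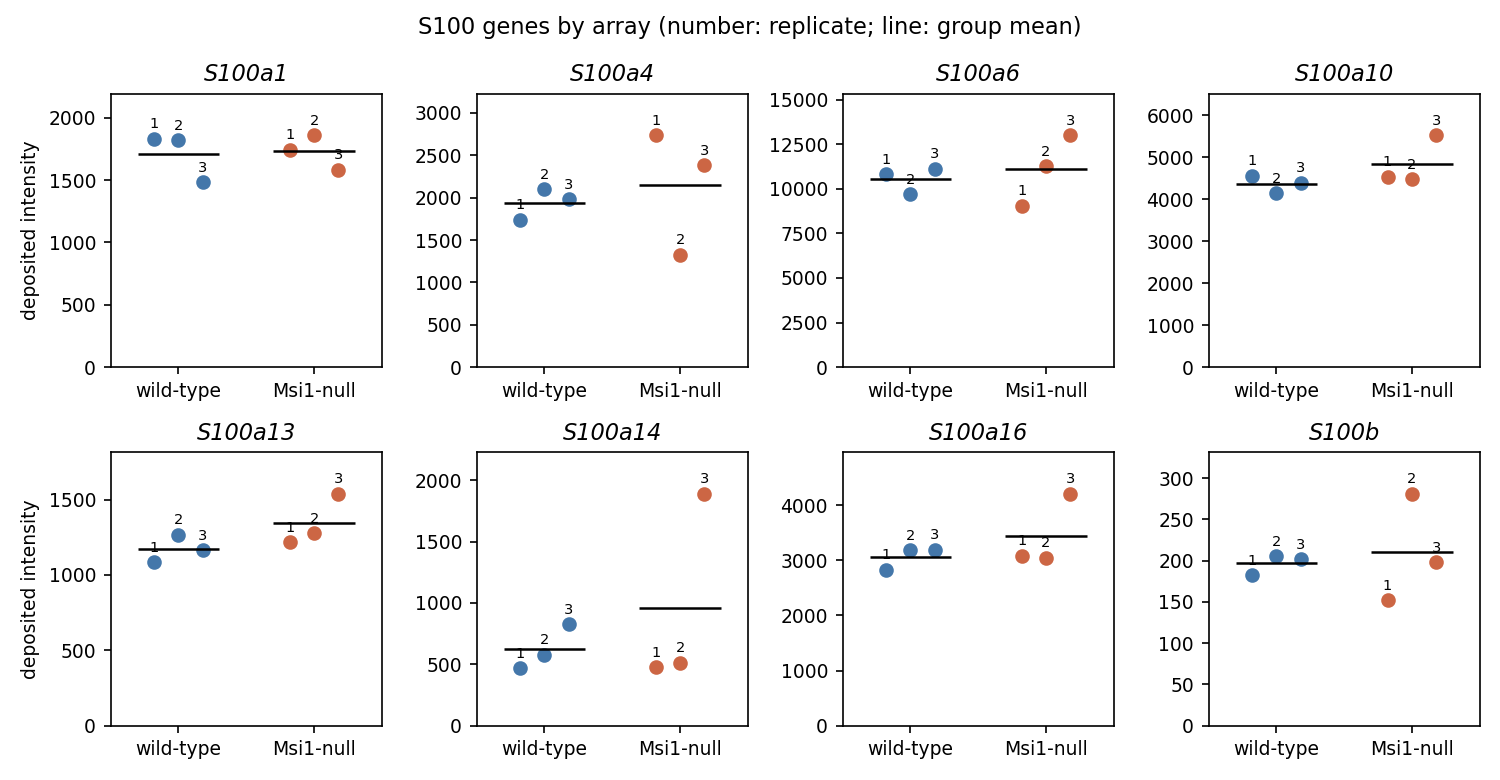
Deposited intensity (vertical axes, linear from 0, a separate scale for each gene) of the 8 S100 genes in 3 wild-type and 3 Msi1-null arrays. Points are arrays, numbers are replicates and lines are group means. In every panel the groups overlap, and S100a14 stands at 1889.0 in Msi1-null replicate 3 and between 466.0 and 827.4 elsewhere.

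**Figure D2:**
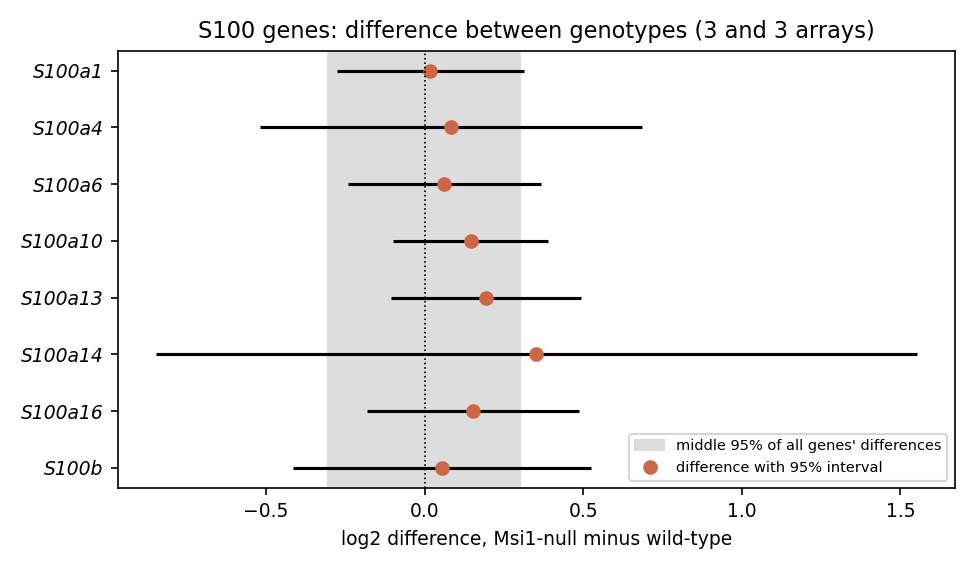
Difference between the genotypes on the log2 scale (horizontal axis, Msi1-null minus wild-type) for each gene, with limma's moderated 95% interval as a bar. The grey band holds the middle 95% of the differences of all 18193 genes, from -0.30 to 0.30. All 8 intervals include 0, and that of S100a14 is the widest.

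The annexin partners come first. S100a10, also called p11, does not need calcium to bind and joins annexin A2 in a complex at the cell membrane that serves as a plasminogen receptor. Its brightest probe set read 4556.0, 4139.3 and 4394.6 in wild-type replicates 1 to 3 and 4538.2, 4473.9 and 5521.6 in Msi1-null replicates 1 to 3. Of the Msi1-null values 2 lay within the wild-type range, and only that of replicate 3 lay above it. The log2 difference was 0.15 ± 0.11 (SE; 95% interval -0.10 to 0.39; limma adjusted p = 0.9997; exact two-sided permutation p = 0.3), and it was 0.05 without Msi1-null replicate 3. The mean of its 3 probe sets differed by 0.07. Of the other probe sets 1 gave 0.10 ± 0.13 (SE) and 1, above background on 4 of 6 arrays, gave -0.03 ± 0.13 (SE).

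S100a11 binds annexin A1 and has roles in keratinocyte growth. The probe set it shares with S100a11-ps and Gm12854 read between 9600.5 and 10755.9 in wild-type and between 9088.5 and 11443.1 in Msi1-null arrays. These ranges overlapped, and the signal cannot be assigned to 1 of the loci, so it enters none of the counts.

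No annexin gene passed the test. Anxa2, the partner of S100a10, read 8160.3, 8978.8 and 9349.4 in wild-type and 8606.9, 9857.4 and 9829.9 in Msi1-null arrays, groups that overlapped, and differed by 0.09 ± 0.08 (SE) on the log2 scale. Anxa1 differed by -0.02 ± 0.17 and Ahnak, a scaffold protein held at the membrane by the S100a10 and annexin A2 complex, by -0.20 ± 0.14 (SE). Anxa11, a partner of S100a6, was not measured with a probe set of its own. Of 11 measured annexin genes 7 had higher and 4 lower means in Msi1-null arrays, and 0 had an unadjusted p under 0.05. Their median log2 difference was 0.10. The 2 of smallest p were Anxa5 (0.19 ± 0.11) and Anxa10 (0.78 ± 0.47, SE), the latter a gene of gastric epithelium that ran from 559.5 to 2808.8 over the arrays. Anxa5, which binds phosphatidylserine, was the 1 annexin gene of 11 whose groups did not overlap, beside 8.28% of all genes, at 4695.3 to 5093.3 in wild-type and 5114.0 to 6525.6 in Msi1-null arrays.

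S100a6, calcyclin, is abundant in proliferating epithelial cells and fibroblasts and binds the protein encoded by Cacybp. It read 10810.8, 9691.6 and 11113.0 in wild-type and 9057.3, 11252.2 and 12998.1 in Msi1-null arrays. Both the lowest and the highest value were in Msi1-null arrays, and the wild-type values lay between them. The log2 difference was 0.06 ± 0.13 (SE; 95% interval -0.24 to 0.37; limma adjusted p = 0.9997), and it was -0.06 without Msi1-null replicate 3. Cacybp differed by 0.03 ± 0.12 (SE). Of 10 markers of cycling cells 9 were measured, 8 of them above background on all arrays. Their sum was 2503.6 to 4581.7 in wild-type and 4711.9 to 7006.5 in Msi1-null arrays. It was highest in Msi1-null replicate 3, like S100a6, but lowest in wild-type replicate 1. The sum of epithelial and ductal tumour cell markers was lowest in Msi1-null replicate 1 (57035.3) and highest in replicate 3 (79113.4), as S100a6 was. Of its 13 measured markers 8 were lowest in Msi1-null replicate 1 and 6 highest in replicate 3. The parts of cycling and of epithelial cells in the S100a6 values were not tested.

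S100a4, also called metastasin or fibroblast-specific protein, binds the non-muscle myosin heavy chain encoded by Myh9 and favours cell movement. It read 1740.8, 2099.3 and 1982.8 in wild-type and 2735.9, 1325.2 and 2379.6 in Msi1-null arrays. Msi1-null arrays were thus the highest, the second highest and the lowest of the 6, with the wild-type arrays inside their range. The log2 difference was 0.08 ± 0.26 (SE; 95% interval -0.52 to 0.69; limma adjusted p = 0.9997), and it was -0.12 without Msi1-null replicate 1, -0.02 without Msi1-null replicate 3 and -0.05 with array weights. The SD within the groups, pooled on the log2 scale, was 0.40, larger than in 94% of the 11142 genes above background on all arrays. Myh9 differed by -0.04 ± 0.11 (SE).

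The summed markers of fibroblasts and of macrophages were highest and lowest on the same arrays as S100a4. All 12 fibroblast markers were measured and above background on all arrays, and their summed intensity was 65726.4 to 69671.4 in wild-type arrays, 82918.7 in Msi1-null replicate 1, 55732.9 in replicate 2 and 67040.2 in replicate 3. The 11 markers of macrophages and monocytes, all above background, summed to 37662.9 to 45944.9 in wild-type and to 54892.0, 32501.9 and 41492.9 in Msi1-null replicates 1 to 3. Single markers did not all follow: 8 of 12 fibroblast and 8 of 11 macrophage markers were highest in Msi1-null replicate 1, and 5 and 7 were lowest in replicate 2. Sums of smooth muscle, endothelial and dendritic cell markers were also highest in Msi1-null replicate 1 (22744.8, 8899.4 and 2723.5). They were lowest in wild-type replicate 1 (8213.1, 5556.6 and 1073.7), unlike S100a4. Of 6 measured dendritic cell markers 1 was above background on all arrays. The part of these cell types in the S100a4 values was not tested. Msi1-null replicate 1 had the lowest weight of the 6 arrays in the fit with array weights (0.3397, against 0.611 to 1.75). Its background was also the highest of the 6 (184.4).

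S100a14 is a member of epithelial tissues whose calcium-binding loops depart from the usual sequence. It read 466.0, 576.8 and 827.4 in wild-type and 477.5, 513.6 and 1889.0 in Msi1-null arrays. The value in Msi1-null replicate 3 was more than any other, and the other Msi1-null arrays lay within the wild-type range, so the higher mean rests on 1 array. The highest of the 6 values was 4.05 times the lowest. On the log2 scale the genotypes differed by 0.35 ± 0.51 (SE; 95% interval -0.85 to 1.55; limma adjusted p = 0.9997), and without Msi1-null replicate 3 it was -0.29. The pooled SD within the groups was 0.84 on the log2 scale, larger than in 99.4% of the genes above background.

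S100a16, its neighbour on the chromosome and a broadly expressed epithelial member, followed the same array. It read 2830.7, 3184.6 and 3192.2 in wild-type and 3082.1, 3051.1 and 4208.4 in Msi1-null arrays. Only Msi1-null replicate 3 lay outside the wild-type range. The log2 difference was 0.15 ± 0.14 (SE; 95% interval -0.18 to 0.49; limma adjusted p = 0.9997), and its other probe set gave 0.08 ± 0.18 (SE). Without Msi1-null replicate 3 the difference was 0.0010.

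Of 14 markers of epithelial and ductal tumour cells 13 were measured and 12 were above background on all arrays, with Onecut1 below it on all. Their summed intensity was 61766.2 to 70255.2 in wild-type arrays and 57035.3, 61607.1 and 79113.4 in Msi1-null replicates 1 to 3. Msi1-null replicate 3 was highest and wild-type replicate 3 next, as for S100a14, but the other arrays differed in order: the sum in wild-type replicate 1, where S100a14 was lowest, was 68861.8, and the lowest sum was in Msi1-null replicate 1. On single markers, 6 of 13 were highest in Msi1-null replicate 3. The keratin gene Krt7 read 10507.2 on this array and 6464.2 to 7402.9 on the others, while Epcam read 8175.1 there and 8965.7 in wild-type replicate 1. Summed markers of cycling cells were lowest in wild-type replicate 1 (2503.6) and highest in Msi1-null replicate 3 (7006.5). These were also the lowest and highest arrays of S100a13, S100a14 and S100a16. Msi1-null replicate 2 was second in that sum (6723.2), while S100a14 read 513.6 there. The parts of epithelial content and of cycling cells in the S100a13, S100a14 and S100a16 values were not tested.

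**Figure D3:**
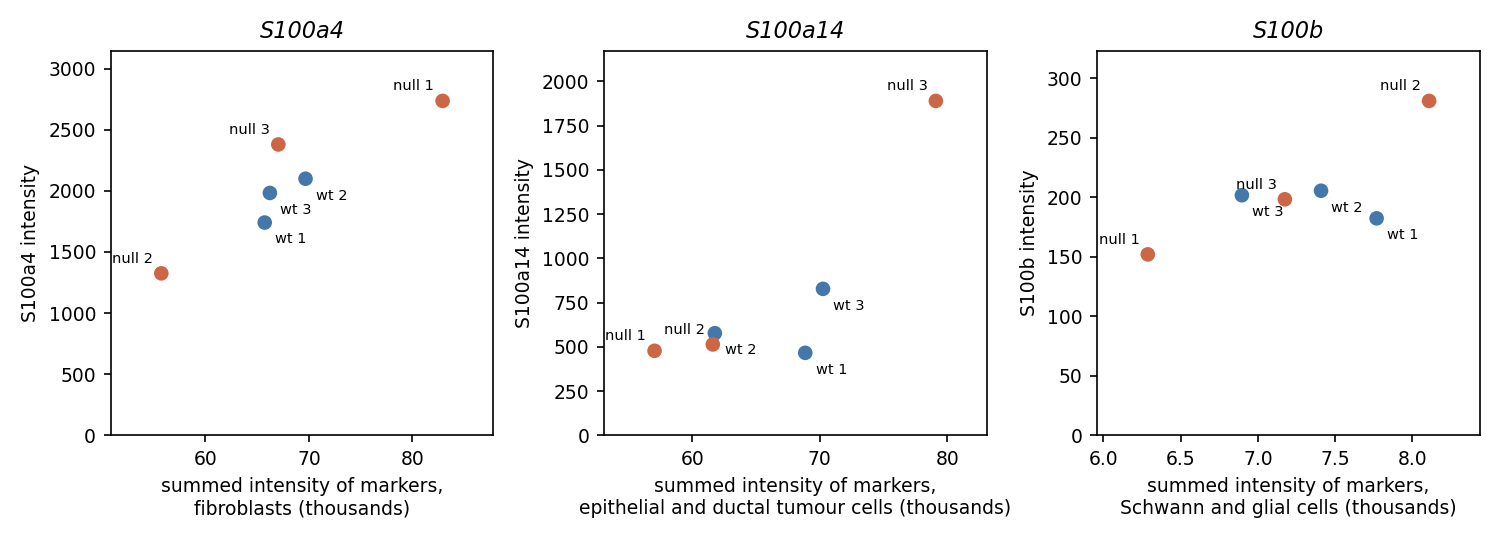
Intensity of S100a4, S100a14 and S100b (vertical axes, from 0) against the summed intensity of the fixed markers of fibroblasts, of epithelial and ductal tumour cells and of Schwann and glial cells (horizontal axes, not from 0). Points are the 6 arrays, blue for wild-type (wt) and orange for Msi1-null (null). S100a4 is highest in Msi1-null replicate 1 and lowest in replicate 2, as the fibroblast sum is, and S100a14 is highest in Msi1-null replicate 3, as the epithelial sum is.

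S100a13 takes part in the release of FGF1 and interleukin 1 alpha, proteins that leave the cell without a signal peptide. It read 1082.7, 1265.3 and 1164.0 in wild-type and 1216.9, 1275.8 and 1538.2 in Msi1-null arrays. Wild-type replicate 2 lay above Msi1-null replicate 1, so the groups overlapped by this 1 pair. Between the log2 means lay 0.19 ± 0.13 (SE; 95% interval -0.11 to 0.49; limma adjusted p = 0.9997; exact permutation p = 0.2), which has the smallest unadjusted p of the 8 genes, and 0.09 without Msi1-null replicate 3. Fgf1 differed by 0.24 ± 0.16 and Il1a by -0.25 ± 0.28 (SE).

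S100a1, best known from heart and skeletal muscle, where it acts on the ryanodine receptor and the calcium pump SERCA, was measured by 2 probe sets. The brighter read 1831.8, 1818.5 and 1482.6 in wild-type and 1743.6, 1858.9 and 1584.3 in Msi1-null arrays. Replicate 3 was the lowest array of each genotype, and the groups overlapped throughout. The log2 difference was 0.02 ± 0.13 (SE; 95% interval -0.27 to 0.31; limma adjusted p = 0.9997), and the other probe set gave 0.06 ± 0.14 (SE). Without wild-type replicate 3 the difference was -0.08 and without Msi1-null replicate 2 it was -0.04. Of 9 muscle markers 5, Myh6, Tnnt3, Actn2, Myl1 and Ryr1, were below background on all arrays, and the list summed to 1341.7 to 1496.8 in wild-type and 1257.0 to 1753.9 in Msi1-null arrays.

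S100a1 and S100a13, whose start sites lie within the promoter stretch printed above, did not follow each other. Over the 6 arrays their log2 values had a Pearson r of -0.25 and a Spearman rho of 0.03 (exact permutation p = 0.639 and 1; adjusted p = 0.758 and 1 over 28 pairs of genes; r = 0.01 without the 2 arrays farthest from the median of S100a1). S100a14 and S100a16 gave the highest correlation of the 28 pairs, with r = 0.96 and rho = 0.94 (exact permutation p = 0.00278 and 0.0167; adjusted p = 0.0778 and 0.467; r = 0.79 without the 2 farthest arrays and 0.68 without Msi1-null replicate 3). S100a13 and S100a16 had r = 0.92 and rho = 0.49 (exact permutation p = 0.0278 and 0.356, adjusted p = 0.372 and 0.819), with r = -0.47 without the 2 arrays farthest from the median of S100a13 and r = 0.67 without Msi1-null replicate 3 alone, so this relation did not hold without those 2 arrays. S100a4 and S100b had r = -0.84 and rho = -0.60 (exact permutation p = 0.0569 and 0.242, adjusted p = 0.372 and 0.819), and r was 0.67 without the 2 arrays farthest from the median of S100a4. No pair passed 0.05 after adjustment.

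**Figure D4:**
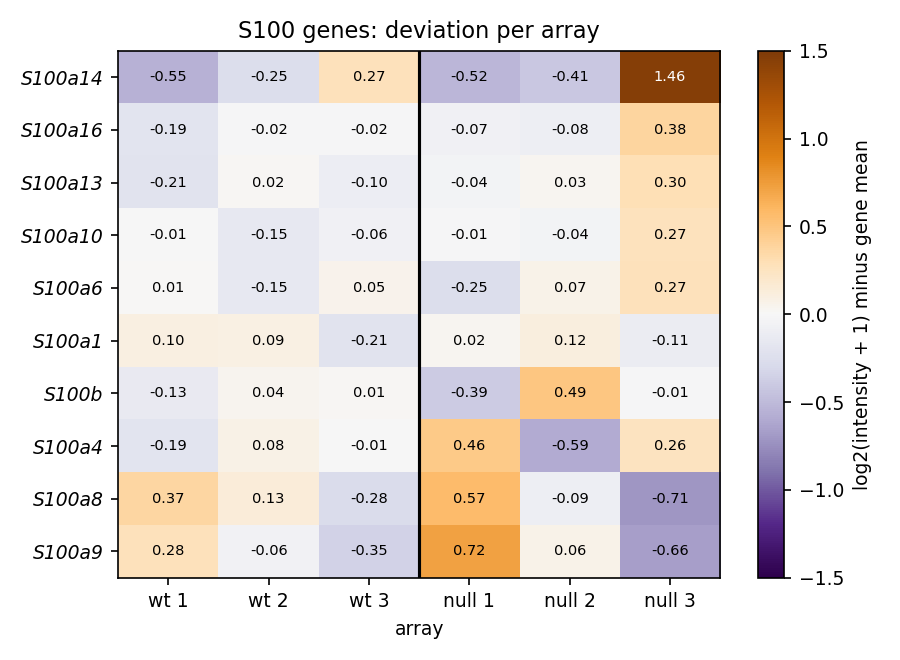
Deviation of log2(intensity + 1) from each gene's mean over the 6 arrays (columns, 3 wild-type and 3 Msi1-null) for the 8 S100 genes and for S100a8 and S100a9. Orange is above and purple below the gene's mean. Msi1-null replicate 3 stands at 1.46 for S100a14 and at -0.71 for S100a8.

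S100b, the glial member, was dim. Its brighter probe set was above background on 5 of 6 arrays and read 182.4, 205.6 and 201.8 in wild-type and 152.1, 281.1 and 198.4 in Msi1-null arrays. Msi1-null arrays gave both the highest and the lowest value. On the log2 scale the difference was 0.055 ± 0.20 (SE; 95% interval -0.41 to 0.52; limma adjusted p = 0.9997), it was -0.18 without Msi1-null replicate 2, and the other probe set gave 0.14 ± 0.11 (SE) with 3 of 6 arrays above background. Of 11 Schwann and glial markers 9 were measured, and Gfap and Foxd3 were below background on all arrays while Sox10 read 165.3 to 192.3. The list summed to 6896.4 to 7769.0 in wild-type arrays and to 6287.1, 8109.0 and 7174.7 in Msi1-null replicates 1 to 3, with its highest and lowest arrays those of S100b. Of its 9 genes only Cnp was highest in Msi1-null replicate 2, while Sox10, Ngfr, Foxd3 and Pmp22 were highest in Msi1-null replicate 1, where S100b was lowest. Only Erbb3 of the 9 was lowest in Msi1-null replicate 1, at 820.5 against 1507.2 to 2118.3 on the other arrays. The sum of islet markers, 7 of 9 measured, was likewise highest in Msi1-null replicate 2 (14945.8) and lowest in Msi1-null replicate 1 (5849.4). Of these 7 markers 5 were highest in Msi1-null replicate 2 and 4 were lowest in Msi1-null replicate 1. The part of glial and islet cells in the S100b values was not tested.

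The granulocyte members S100a8 and S100a9, subunits of calprotectin, ran in another order. S100a8 read 3286.9, 2784.1 and 2090.7 in wild-type and 3777.2, 2387.4 and 1546.0 in Msi1-null arrays, and the means differed by -0.15 ± 0.32 (SE, log2). S100a9 read 2158.2, 1710.1 and 1397.3 in wild-type and 2924.9, 1854.6 and 1124.5 in Msi1-null arrays, and the means differed by 0.08 ± 0.33 (SE, log2). Both were highest in Msi1-null replicate 1 and lowest in Msi1-null replicate 3, the array where S100a14 was highest. Of the remaining family S100a3 and S100a5 were below background on all arrays. S100g, the vitamin D-dependent calcium carrier of intestinal epithelium, ran from 51.20 to 443.7 and overlapped widely (0.03 ± 0.81, SE). None of these 5 genes had an unadjusted p under 0.05, 4 had a higher and 1 a lower mean in Msi1-null arrays, and their median log2 difference was 0.07. The genes for S100-fused proteins of the skin barrier, 5 of 7 measured, were above background on all arrays in 0 cases.

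Of 37 measured genes for S100 targets and receptors, from a list of 40, 17 had higher and 20 lower means in Msi1-null arrays, and the median log2 difference was -0.01. At an unadjusted p under 0.05 there were 3 of 37, beside 3.46% of all genes, and the groups of 3 of 37 did not overlap, beside 8.28% of all genes. After adjustment over all probe sets 0 passed. Plau, the urokinase-type plasminogen activator, read 353.9, 420.2 and 378.4 in wild-type and 304.2, 199.1 and 278.2 in Msi1-null arrays. All 3 Msi1-null values were below the wild-type values, and the log2 difference was -0.58 ± 0.16 (SE; limma adjusted p = 0.9997). Ager, the receptor RAGE, had means of 206.6 ± 33.6 (wild-type) and 166.8 ± 8.17 (SD, n = 3), close to background, and differed by -0.30 ± 0.12 (SE; limma adjusted p = 0.9997). Tlr4, a receptor for calprotectin, had means of 491.2 ± 65.7 (wild-type) and 375.4 ± 68.9 (SD, n = 3) and differed by -0.40 ± 0.16 (SE; limma adjusted p = 0.9997). The next by p was Iqgap1, a scaffold protein that binds S100b, at -0.16 ± 0.10 (SE). Trp53, Trpv5 and Anxa11 of this list had no probe set of their own.

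Other EF-hand and calcium-binding genes gave 9 higher and 3 lower means among 12 measured of 16, with a median log2 difference of 0.11 and 0 at an unadjusted p under 0.05. Those of smallest p were Rcn1, a calcium-binding protein of the endoplasmic reticulum (0.43 ± 0.20), Cib1, a calcium- and integrin-binding protein (0.31 ± 0.18), Plscr1, a phospholipid scramblase (0.17 ± 0.11), and Sri, sorcin (0.12 ± 0.10, SE). Plscr1 was the 1 gene of 12 whose groups did not overlap, beside 8.28% of all genes.

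For each of the 7 S100 genes above background on all arrays, the 2 genes of highest Pearson r over the 6 arrays were taken from 11135 candidates that were also above background. As the highest of so many over 6 arrays they only describe likeness on these arrays. The order of the arrays can still differ, as for Mrps11 and S100a16 with a Spearman rho of 0.71. S100a4 was followed by Tex50 (r = 0.99) and by Col1a2, the alpha 2 chain of type I collagen (r = 0.99), which read 16741.1 in Msi1-null replicate 1 and 11888.2 in replicate 2. Col1a2 is among the 12 fibroblast markers summed above, so its likeness to S100a4 is not separate from that of the sum. S100a14 was followed by Ercc1 and Pgp (r = 0.99 for both) and S100a6 by Rflnb and Gramd4 (r = 0.99 for both). The nearest genes were Smox and Mrps11 for S100a16 (r = 0.99 for both), Exoc3l4 and Ppp1ca for S100a13 (r = 0.98 for both), Pacrgl and Ppp1r15b for S100a10 (r = 0.99 and 0.97), and Zfp282 and Clec2d for S100a1 (r = 0.99 and 0.98). Without the 2 arrays farthest from the member's median, r was between 0.47 and 1.00, and lowest for Mrps11 and Ppp1r15b.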

How the data were processed

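Total RNA (6 ug per sample) was labelled with biotin and hybridised to Affymetrix arrays, as the labels' protocols state. Linear intensity was deposited in a single table, made with GCRMA, which corrects background by probe sequence, normalizes quantiles and summarises probes, per the submitters' processing notes; its version and settings, and any rescaling, are not given in the sources used here. Background correction can shrink differences of dim transcripts.

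Of 45101 probe sets 64 controls were left out and 45037 tested; 34945 had 1 gene symbol, 932 several and 9160 none. Symbols were updated through Entrez IDs with RefSeq (GRCm38.p6), with 34741 matched. Values were analysed as log2(intensity + 1) with R 4.3.3 and limma 3.58.1, using lmFit and then eBayes with a trend, genotype as the only term and Benjamini-Hochberg adjustment over all probe sets at 0.05. Exact permutation tests covered the 20 assignments of 3 and 3 arrays, whose smallest two-sided p is 0.1. SD is over arrays and SE is moderated. The fit was tested on simulated data.

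Members, gene lists and alternatives were chosen with earlier results of these data known. Named genes were all members, the other S100 genes, up to 4 genes of each partner list by unadjusted p, 8 known partners and the 2 genes most alike to each member. Il1a, Krt7, Epcam, Sox10, Ngfr, Foxd3, Pmp22, Cnp, Erbb3, Ighm and the motifs were chosen after values were seen.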

Additional observations from a re-analysis of the deposited data

How the results depend on the processing

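Of 135 values of the 8 S100 genes under alternatives, 127 had an adjusted p and 0 of these were under 0.05: filters at a mean log2 of 7 and 8, eBayes without trend or robust, quantile, median or cyclic loess normalization, array weights, a pseudocount of 16, the replicate block, and each array left out. S100b did not pass the filter at 8, and the other probe sets per gene gave 8 values with no p. Over all probe sets the count was 0 to 1 when 1 array was left out (1 without Msi1-null replicate 1, a probe set of Ighm) and 0 otherwise; 1355 probe sets had an unadjusted p under 0.05. Of the 135 values 8 turned sign, 7 of them with 1 array left out: S100a1 then ran from -0.0812 to 0.0802, S100a4 from -0.1239 to 0.3987, S100a6 from -0.0595 to 0.2011, S100a14 from -0.2905 to 0.7004 and S100b from -0.1754 to 0.2654. S100a4 was -0.0483 with array weights. Higher means numbered 5 to 8 of 8 genes with 1 array left out. The median over S100 target and receptor genes was -0.0008 with the filter at 8 and -0.0188 to 0.0073 with 1 array left out, and that of the other S100 genes was -0.0357 with the filter at 8, where 2 were left. With 1 array left out the median of the 8 genes was 0.0243 to 0.2134, and S100a10 ran from 0.0475 to 0.1993, S100a13 from 0.0928 to 0.2617 and S100a16 from 0.0010 to 0.2329. The median was 0.11 with the replicate block. The labels name no block, so the replicate numbers were not taken as pairs in the main fit. Deviations of same-numbered arrays of the 2 genotypes correlated at 0.17, -0.09 and 0.28, and those of unlike-numbered arrays at -0.26 to 0.06. These values do not decide whether the numbers are pairs. The block gave 0 calls and 2120 probe sets at an unadjusted p under 0.05. The causes were not tested. S100b was close to background, which limits its values.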
